A study of Mus musculus with 6 samples.

Results

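The 700 kb of mouse chromosome 15 that hold the Ly6 gene cluster were examined for chromatin accessibility in colon cancer organoids. The members were all deposited ATAC-seq peaks that overlap chromosome 15 from 74400000 to 75100000 (genome build mm9), which gave 41 of 43020 peaks. ATAC-seq counts the cuts that the Tn5 transposase makes in open chromatin, so more reads over a peak mean a more accessible site. For the primary tumour group, organoids grown out of tumours gave 3 libraries (primary tumour replicates 1 to 3). Naive AKP organoids had been placed in the colon of immunocompetent C57Bl6 mice by colonoscopy, and the organoids grown from the tumours were passaged until no other cells were left. They were set against 3 libraries of naive AKP organoids that had not been in a mouse (naive replicates 1 to 3). All 6 libraries carry the AKP genotype. Growth in the mouse, outgrowth and passage are shared by all primary tumour libraries, and their effects cannot be told apart.

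The libraries held between 1185356 and 5987545 reads in peaks, of which 1908 to 8253 reads, or 0.138% to 0.163%, fell in the Ly6 window. Naive replicate 1 was the shallowest and naive replicate 2 the deepest. Accessibility is given as CPM, the count relative to the size of the library after TMM scaling, and fold changes are primary tumour over naive. A peak was called when its adjusted p was under 0.05 in edgeR's quasi-likelihood test over all 36179 tested peaks. The filter on low counts left 39 of the 41 members for testing. In bulk libraries, fewer cells with an open site and less opening per cell cannot be told apart.

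Ly6 genes encode small cell-surface proteins of the Ly6/uPAR family, most of them held in the membrane by a lipid (GPI) anchor. Ly6a encodes Sca-1, the antigen used to sort mouse blood stem cells, which is induced by interferon and marks fetal-like epithelium in the regenerating mouse intestine. Ly6e encodes another interferon-induced member, which limits the entry of some viruses into cells. Ly6d marks keratinocytes and early B-lineage cells, Ly6c1 and Ly6c2 encode the Ly6C antigen of monocytes and other cells, and Ly6g encodes a neutrophil antigen. In the RefSeq order of genes for GRCm38.p6, Ly6i, Ly6e, Ly6m, Ly6k and Ly6d follow each other away from Ly6a toward lower coordinates, with genes of other families between them. Toward higher coordinates, Ly6a is followed by Ly6c1, Ly6c2, Ly6a2, Ly6g, Ly6g2 and Ly6f. The position of Ly6a in mm9, about 74825300 to 74828400, was the only gene position used. The other genes were therefore not tied to single peaks, and the epithelial label of the libraries was not checked against marker genes.

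Some Ly6 genes are close copies of each other, so short reads can match more than 1 place in the cluster. The sequences below show this for a neighbouring pair on the higher-coordinate side of Ly6a, as the 250 bases upstream of each transcript start (RefSeq, GRCm38.p6, minus strand). They cover chr15:75111972-75112221 for Ly6c2 and chr15:75135129-75135378 for Ly6a2. These are GRCm38.p6 positions and cannot be set beside the mm9 positions of the window and its peaks. Capitals mark the longest stretch that both share without a difference.
Ly6c2: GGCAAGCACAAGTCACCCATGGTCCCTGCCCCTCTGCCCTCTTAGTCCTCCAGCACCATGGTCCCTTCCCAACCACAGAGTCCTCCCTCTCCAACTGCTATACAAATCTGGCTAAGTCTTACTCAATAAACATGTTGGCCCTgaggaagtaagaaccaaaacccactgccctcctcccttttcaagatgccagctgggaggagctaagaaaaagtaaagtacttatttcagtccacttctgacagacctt
Ly6a2: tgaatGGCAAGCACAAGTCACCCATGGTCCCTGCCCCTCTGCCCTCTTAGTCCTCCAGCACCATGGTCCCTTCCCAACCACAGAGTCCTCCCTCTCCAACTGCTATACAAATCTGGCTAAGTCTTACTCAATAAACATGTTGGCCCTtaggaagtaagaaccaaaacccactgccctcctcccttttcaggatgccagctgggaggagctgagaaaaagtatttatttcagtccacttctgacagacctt
The shared stretch was 142 bases long, against sequencing reads of 75 bases, and 94.9% of the aligned positions were identical. The longest stretch shared by the upstream sequences of Ly6c1 and Ly6c2 was 20 bases. Of the 5 genes Ly6a, Ly6e, Ly6d, Ly6c1 and Ly6c2, only 2, Ly6c1 and Ly6c2, had a promoter in the RefSeq table. Both strands of the upstream sequences of Ly6c1, Ly6c2 and Ly6a2 were searched for 6 motifs, and none had a match. The promoters of Ly6a, Ly6e and Ly6d could not be searched. In all 32851 promoters of the table, the gamma-interferon activation site TTCNNNGAA was found in 7.02%, the interferon-response core GAAANNGAAA in 2.98% and the AP-1 motif TGANTCA in 6.75%. The TEAD motif GGAATG was found in 12.6% of them, the SOX motif AACAAT in 9.42% and the TCF/LEF motif CTTTGA in 13.8%.

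Accessibility at Ly6a itself was not distinguishable between the groups. The peak that overlaps Ly6a lay from 74828263 to 74831257, at the higher-coordinate end of the gene, where transcription of this minus-strand gene starts. It had 103, 120 and 121 CPM in the libraries of primary tumour replicates 1, 2 and 3, against 112, 133 and 119 CPM in naive replicates 1, 2 and 3. The groups overlapped, with the lowest value in primary tumour replicate 1 and the highest in naive replicate 2. The log2 fold change was -0.09 (SE 0.19, adjusted p = 0.820, edgeR, n = 3 each), and its 95% interval ran from -0.47 to 0.30.

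**Figure D1:**
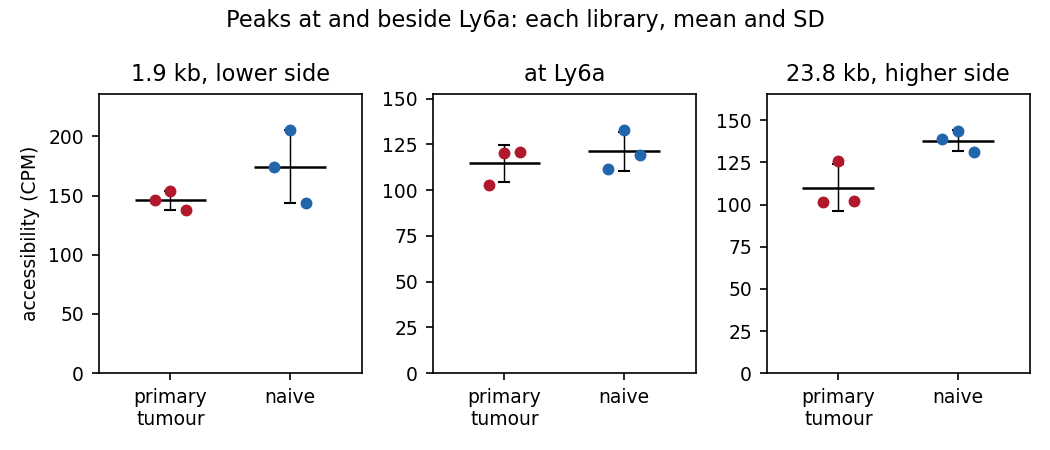
Accessibility in CPM of the peaks at and beside Ly6a in each library (points), with the group mean (line) and SD (bar), primary tumour left and naive right in each panel. At the Ly6a peak the means were 115 and 121 CPM and the groups overlapped.

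The neighbours of the Ly6a peak were among the strongest sites of the window. From 74822346 to 74823405, 1.90 kb from Ly6a on its lower-coordinate side, accessibility was 147, 154 and 138 CPM in primary tumour libraries and 174, 205 and 144 CPM in naive libraries. The ranges overlapped, and the log2 fold change was -0.26 (SE 0.18, adjusted p = 0.394, edgeR). Per kb of peak it was the strongest member, with 138 CPM per kb in tumour-derived organoids and 165 CPM per kb in naive organoids, against a median of 24.0 CPM per kb over the 41 members. From 74852165 to 74853342, 23.8 kb from Ly6a on the other side, accessibility was 102, 126 and 102 CPM in primary tumour libraries and 139, 144 and 131 CPM in naive libraries. Every primary tumour library lay below every naive library there. The difference did not pass the test (log2 fold change -0.33, SE 0.19, adjusted p = 0.261, edgeR). None of these 3 peaks passed the test in any alternative tried, and the Ly6a peak had a log2 fold change of 0.12 with abundance-trended offsets.

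Called peaks lay farther from Ly6a, in shares not far from those of all tested peaks. Of the 39 tested members, 5 (12.8%) rose in tumour-derived organoids, against a background of 8.00% of all tested peaks, and 2 (5.13%) fell, against a background of 6.40%. All 5 that rose were among the 29 tested members on the lower-coordinate side of Ly6a. Both that fell were among the 9 tested members on the higher-coordinate side. The split of the window at Ly6a was chosen after the values were seen and was given no test. Without naive replicate 2, 3 members rose and 1 fell, while over all tested peaks 1366 rose and 849 fell. Without naive replicate 3, 3 members rose and 2 fell, while over all tested peaks 2210 rose and 1677 fell. With all 6 libraries, 2893 of all tested peaks rose and 2317 fell.

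**Figure D2:**
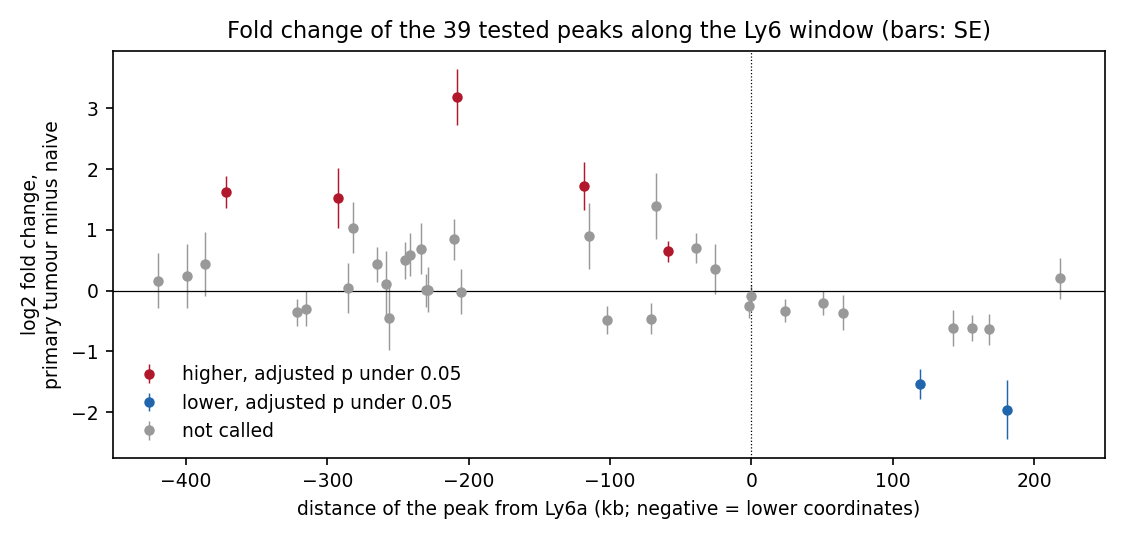
Log2 fold change (primary tumour minus naive) of the 39 tested peaks against their distance from Ly6a in kb, with bars for the SE and colour for the call. The 5 peaks that rose lie at negative distances, the 2 that fell at positive distances, and the peaks at Ly6a lie near 0.

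The largest rise was found 209 kb from Ly6a, from 74616270 to 74616768. This peak held 100, 35 and 45 reads in the libraries of primary tumour replicates 1, 2 and 3, against 2, 15 and 6 reads in naive replicates 1, 2 and 3. In CPM it had 28.5, 18.5 and 21.3 in primary tumour libraries and 1.72, 2.76 and 2.56 in naive libraries. Reads were few in every naive library, and the peak passed the filter on low counts only through its primary tumour libraries. The rise was 9.07-fold (log2 fold change 3.18, SE 0.46, adjusted p = 4.35e-05, edgeR), and it passed the test in all 14 alternatives tried.

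The peaks on either side of it did not pass the test. From 74614248 to 74615065 accessibility was 43.6, 20.1 and 35.1 CPM in primary tumour libraries and 14.6, 14.9 and 26.1 CPM in naive libraries, with overlapping groups (adjusted p = 0.0916, edgeR). From 74618596 to 74619754 it averaged 18.6 ± 8.11 CPM in tumour-derived organoids against 19.4 ± 4.62 CPM in naive organoids (mean ± SD, n = 3 each).

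The called peak farthest from Ly6a, at 371 kb, lay from 74452485 to 74453847. It had 58.2, 94.7 and 77.8 CPM in primary tumour libraries, against 22.3, 20.03 and 32.5 CPM in naive libraries. All primary tumour libraries lay well above all naive ones. The rise was 3.08-fold (log2 fold change 1.62, SE 0.26, adjusted p = 0.000137, edgeR) and also passed in all 14 alternatives.

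Another peak rose unevenly across the primary tumour libraries. From 74705920 to 74707125, 118 kb from Ly6a, accessibility was 65.6, 19.1 and 33.7 CPM in the libraries of primary tumour replicates 1, 2 and 3, against 12.9, 8.82 and 15.8 CPM in naive libraries. Primary tumour replicate 1 was far above the other primary tumour libraries, and replicate 2 was only slightly above the highest naive library. The log2 fold change was 1.72 (SE 0.39, adjusted p = 0.00420, edgeR). Without primary tumour replicate 1 it was 1.12 (adjusted p = 0.0437), and without naive replicate 2 it was 1.46 and did not pass (adjusted p = 0.0562).

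The widest member, 4665 bases from 74761370 to 74766035 and 59.3 kb from Ly6a, was also the strongest by CPM. It had 190, 229 and 194 CPM in primary tumour libraries and 131, 128 and 132 CPM in naive libraries. The naive libraries were nearly equal, and all primary tumour libraries were higher. The rise was 1.56-fold (log2 fold change 0.65, SE 0.18, adjusted p = 0.0144, edgeR). Per kb it stood out less, with 43.8 CPM per kb in tumour-derived organoids and 28.0 CPM per kb in naive organoids. Its mean over all libraries was 35.9 CPM per kb, above the member median of 24.0 and below the member maximum of 151. The call was lost without naive replicate 1 (adjusted p = 0.0595), without naive replicate 3 (adjusted p = 0.0515) and without primary tumour replicate 2 (adjusted p = 0.107).

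The fifth peak that rose lay 292 kb from Ly6a, from 74532413 to 74533005. It had 13.4, 16.4 and 16.6 CPM in primary tumour libraries and 8.58, 2.39 and 6.83 CPM in naive libraries. Primary tumour libraries were close to each other, while the naive libraries, which rest on 10, 13 and 16 reads, were spread. The log2 fold change was 1.52 (SE 0.50, adjusted p = 0.0393, edgeR). This call passed in 7 of 14 alternatives, with adjusted p between 0.0259 and 0.250, and without naive replicate 2 the log2 fold change was 1.02.

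**Figure D3:**
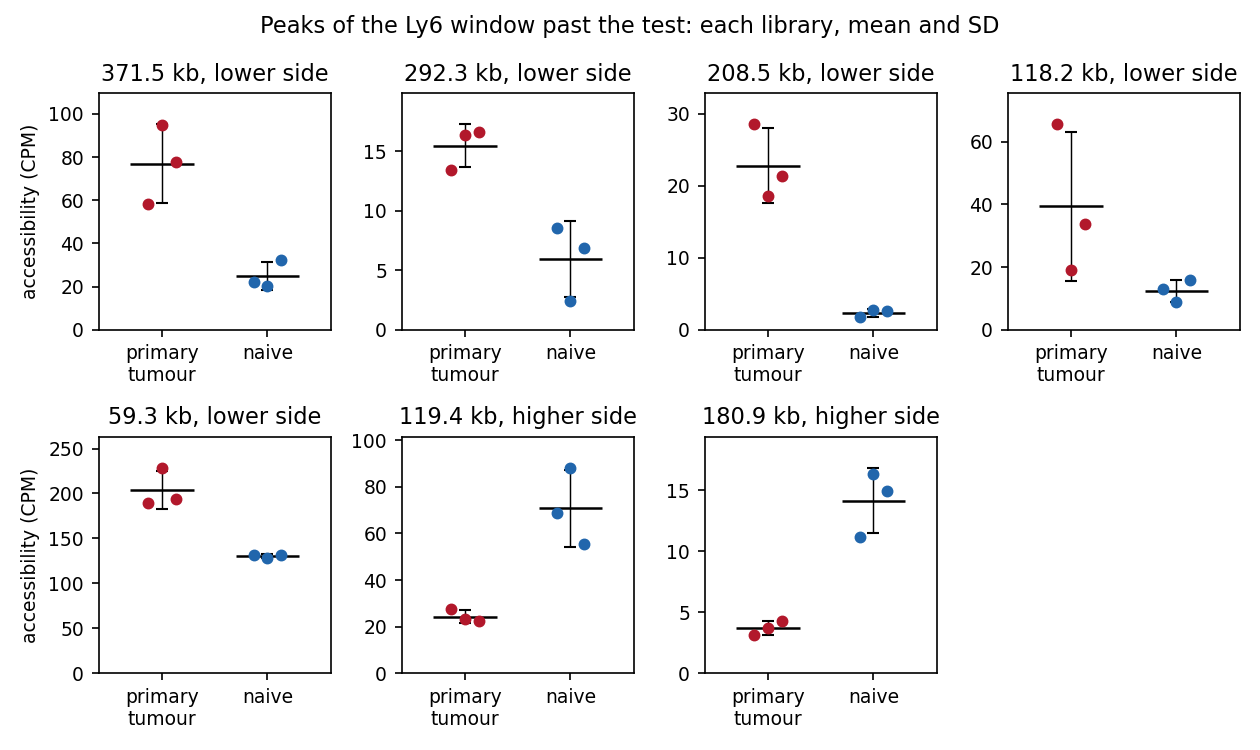
Accessibility in CPM of the 7 called peaks in each library (points), with the group mean (line) and SD (bar), primary tumour left and naive right. Panels give the distance from Ly6a and the side (lower or higher coordinates); in each panel the groups do not overlap.

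On the higher-coordinate side of Ly6a, the differences ran the other way. From 74947760 to 74949074, 119 kb from Ly6a, accessibility was 27.4, 23.3 and 22.3 CPM in primary tumour libraries, against 68.6, 88.2 and 55.5 CPM in naive libraries. Primary tumour libraries were nearly equal and lay far below all naive libraries. The peak fell 2.91-fold (log2 fold change -1.54, SE 0.25, adjusted p = 0.000151, edgeR) and passed in all 14 alternatives.

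A weaker peak fell further. From 75009316 to 75009995, 181 kb from Ly6a, there were 11, 7 and 9 reads in primary tumour libraries and 13, 89 and 35 reads in naive libraries. In CPM these were 3.14, 3.70 and 4.27 in primary tumour libraries against 11.2, 16.4 and 14.9 in naive libraries. All primary tumour libraries were low, and the fall was 3.89-fold (log2 fold change -1.96, SE 0.49, adjusted p = 0.00713, edgeR). Without naive replicate 2, the deepest library, the adjusted p was 0.0546. The peak passed the filter on low counts only through its naive libraries, and it was not tested under the stricter filter on low counts.

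Between this pair, 3 further peaks had all primary tumour libraries below all naive libraries without passing the test. Over all tested peaks, 15.3% had all primary tumour libraries below all naive libraries. From 74984099 to 74985844 the values were 51.3, 58.7 and 52.2 CPM in primary tumour libraries and 97.8, 81.8 and 70.0 CPM in naive libraries (log2 fold change -0.61, SE 0.21, adjusted p = 0.0540, edgeR). From 74971037 to 74972091 the means were 19.9 ± 3.66 CPM in tumour-derived organoids against 30.8 ± 3.78 CPM in naive organoids, and from 74996639 to 74998743 they were 31.0 ± 7.43 CPM in tumour-derived organoids against 48.0 ± 5.30 CPM in naive organoids (mean ± SD, n = 3 each). The farthest member on this side, from 75046433 to 75048155, averaged 26.6 ± 6.24 CPM in tumour-derived organoids against 24.3 ± 10.9 CPM in naive organoids, and its groups overlapped.

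**Figure D4:**
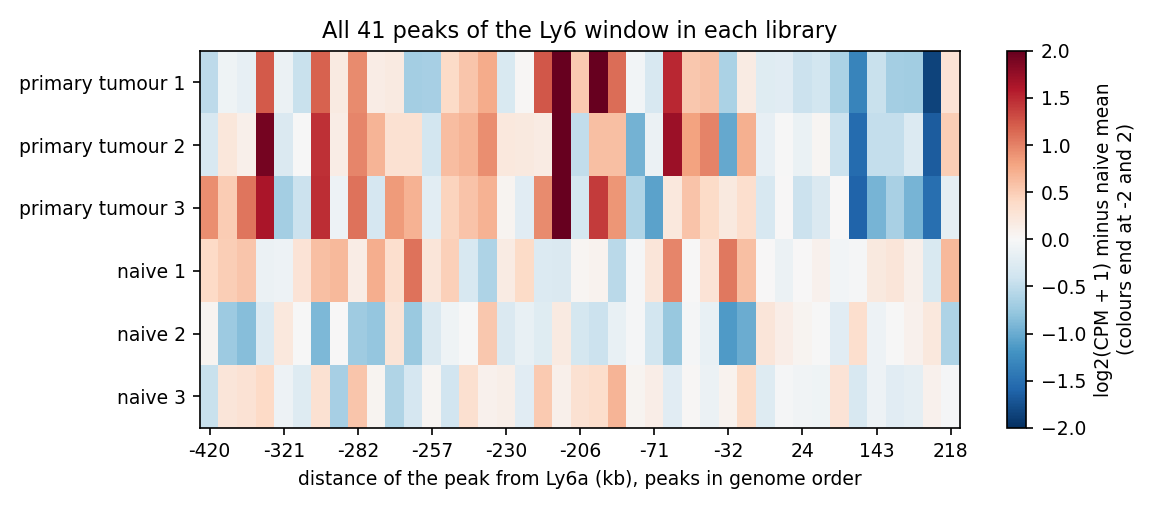
Each of the 41 peaks (columns, in genome order) in each library (rows), as log2(CPM + 1) minus the naive mean of that peak, with colours ending at -2 and 2. Columns red in all 3 primary tumour rows lie left of Ly6a and include the 5 peaks that rose; columns blue in all 3 are darkest at the 2 peaks that fell, right of it, with paler ones on both sides, and naive libraries vary at weak peaks on the left.

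The remaining members were mostly within the spread of the libraries. In all, 32 tested members were not called, and 7 of these had an unadjusted p under 0.05 (edgeR). The share of such peaks over all tested peaks was not counted, so nothing is read from that number. Every primary tumour library exceeded every naive library at 9 tested members (23.1%, background 15.5%) and every one was lower at 8 (20.5%, background 15.3%). At 3.97 ± 1.74 CPM in tumour-derived organoids against 3.63 ± 2.28 CPM in naive organoids, the peak from 74545017 to 74545319 was too weak to be tested. The other untested peak, from 74793043 to 74793372, averaged 2.19 ± 1.43 CPM in tumour-derived organoids against 4.02 ± 3.44 CPM in naive organoids (mean ± SD, n = 3 each).

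Of the 29 tested peaks on the lower-coordinate side, 22 had a log2 fold change above 0. Besides the 5 called, 4 of these had all primary tumour libraries above all naive libraries. The nearest of the 4 to Ly6a lay from 74785237 to 74786319 (log2 fold change 0.70, SE 0.25, adjusted p = 0.0624, edgeR). The other 7 peaks had a log2 fold change below 0, and none of these passed the test. From 74502567 to 74503833 accessibility was 61.6, 54.5 and 41.3 CPM in primary tumour libraries and 61.8, 77.0 and 62.4 CPM in naive libraries (log2 fold change -0.36, adjusted p = 0.324, edgeR). The groups did not overlap there, although primary tumour replicate 1 and naive replicate 1 were nearly equal. From 74721089 to 74723093 accessibility was 71.6, 38.1 and 48.4 CPM in primary tumour libraries and 72.9, 72.8 and 77.3 CPM in naive libraries. Naive libraries were nearly equal, and primary tumour replicate 1 came close to them (log2 fold change -0.48, adjusted p = 0.182, edgeR). From 74751674 to 74753996 the means were 42.8 ± 13.7 CPM in tumour-derived organoids against 59.8 ± 12.7 CPM in naive organoids, with overlapping groups.

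Over the whole window the gains and losses nearly cancelled. Summed over all 41 peaks, accessibility was 1538, 1652 and 1495 CPM in the libraries of primary tumour replicates 1, 2 and 3, against 1637, 1516 and 1464 CPM in naive replicates 1, 2 and 3. The groups overlapped fully, and the means were 1561 ± 81.4 CPM in tumour-derived organoids and 1539 ± 88.9 CPM in naive organoids (mean ± SD, n = 3 each), a log2 ratio of 0.02. The median log2 fold change of the 39 tested members was 0.10, against -0.01 over all tested peaks and 0.08 over the 1639 tested peaks of chromosome 15 outside the window. Without naive replicate 2, the median of the tested members was -0.09.

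The sums on each side of Ly6a did not overlap between the groups. On the lower-coordinate side, 31 peaks summed to 1078, 1107 and 1024 CPM in primary tumour libraries, against 955, 839 and 852 CPM in naive libraries. On the higher-coordinate side, 9 peaks summed to 356, 425 and 350 CPM in primary tumour libraries, against 571, 545 and 492 CPM in naive libraries. The median log2 fold change was 0.43 on the lower-coordinate side, where 22 of 29 tested peaks were above 0, and -0.61 on the other, where 1 of 9 was. Without naive replicate 2 the first median was 0.11. Both medians kept their sign in every alternative tried, but the side was chosen after the values were seen, so this adds no support.

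**Figure D5:**
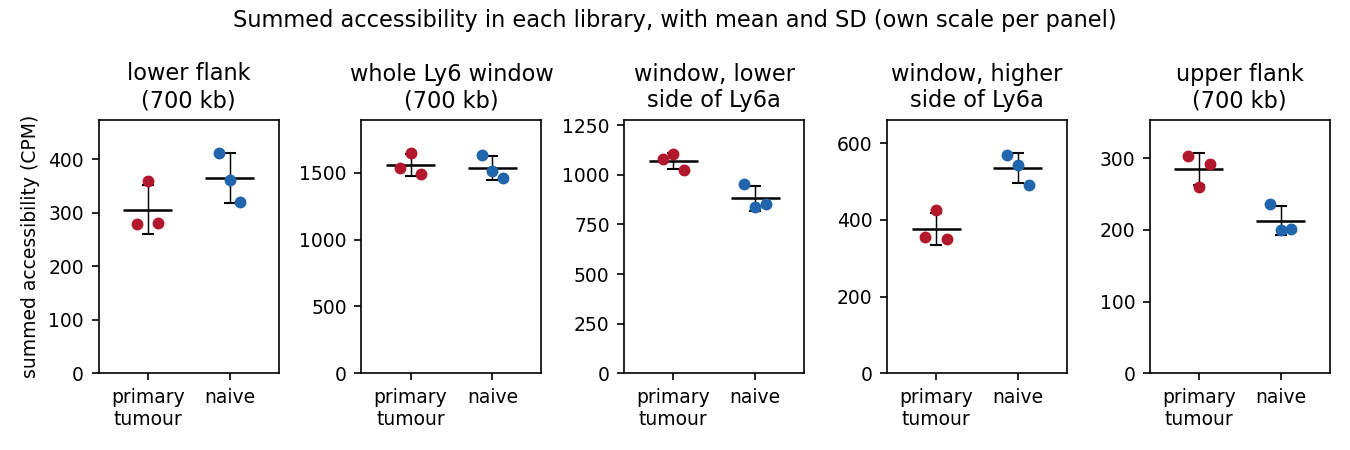
Summed accessibility in CPM in each library (points), with group mean (line) and SD (bar), primary tumour left and naive right, for the Ly6 window, its sides and an equal stretch beyond each end. The whole window has about the same sum in both groups (1561 and 1539 CPM), while its sides differ in opposite directions; each panel has its own scale.

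The stretches beyond the window did not share one direction either. In the 700 kb before it, 16 peaks summed to 306 ± 45.7 CPM in tumour-derived organoids against 365 ± 46.0 CPM in naive organoids, and 0 rose and 1 fell (edgeR). In the 700 kb after it, 13 peaks summed to 285 ± 22.5 CPM in tumour-derived organoids against 213 ± 20.2 CPM in naive organoids (mean ± SD, n = 3 each), and 5 rose and 0 fell (edgeR). Chromosome 15 outside the window had a median log2(CPM + 1), relative to the naive mean, of 0.08, 0.11 and 0.10 in tumour-derived libraries 1, 2 and 3, against 0.02, -0.01 and 0.01 in naive libraries 1, 2 and 3. For an alternative scaling, a like median of these peaks was taken from log2 CPM centred on the mean of all libraries. It was taken out of the scaling of each library as an offset, which applies it to peaks on every chromosome. With this offset, 5 members rose and 3 fell. Over all tested peaks 2619 rose and 2867 fell, against 2893 and 2317 with TMM alone. The median log2 fold change over all tested peaks was then -0.08, against -0.01 with TMM alone.

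The members also differed from the deposited peaks at large in form. Their median width was 1054 bases, against 746 bases over all peaks, and their median score, as the authors gave it, was 30.2 against 21.8. Of the 41 members, 26 were wider than the median peak and 27 had a higher score. Their median accessibility was 24.0 CPM per kb, against 16.5 CPM per kb over all peaks. None of these differences was tested.

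The peaks whose profile was most like that of the Ly6a peak were sought among the 36140 tested peaks outside the window, by Pearson's r of log2(CPM + 1) over the 6 libraries. The closest were on chromosome 4 from 89094102 to 89095494 (r = 0.992), chromosome 3 from 55987408 to 55988098 (r = 0.989), chromosome 10 from 82085357 to 82086540 (r = 0.988), chromosome 4 from 133227301 to 133228985 (r = 0.984) and chromosome 5 from 98794162 to 98795006 (r = 0.983). Spearman's rho was between 0.943 and 1. Like the Ly6a peak, all 5 had the lowest value in primary tumour replicate 1 and the highest in naive replicate 2, the 2 deepest libraries. None was called between the groups. Both traits follow from choosing peaks by their likeness to the Ly6a peak. Over 6 libraries, 173 peaks reached an r above 0.9, so the ranking is a description of these libraries only.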

How the data were processed

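ATAC-seq was run on 3 primary tumour libraries and 3 naive libraries. The authors deposited raw read counts for 43020 peaks of 1 shared peak set, without normalization. Bowtie, Picard, SAMtools, MACS2, bedtools and the build mm9 are listed in the submitters' processing notes. How reads were shifted for the transposase, and how duplicates and reads with several matches were treated, is not given in the sources that were used, and each can change counts. The labels do not say whether replicates were separate cultures, animals or lines, so p-values measure the spread between these libraries.

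The 36179 peaks that passed filterByExpr were scaled by TMM and compared between the groups with no other covariate, by the robust quasi-likelihood test of edgeR 4.0.16 in R 4.3.3 (2-sided). Adjusted p-values are Benjamini-Hochberg values over all of them. The test was checked on simulated counts. Peaks named individually were those called, those at or beside Ly6a, and the 3 strongest; the few others given with values were chosen after their values were seen. The members, the rule and the lists were chosen with earlier results of these data known. The gene and marker lists were not used, because no mm9 annotation was at hand. Upstream sequences were compared with Biopython 1.88. The alternatives were other scalings, DESeq2 1.42.0, other filters, a replicate block and each library left out.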

Additional observations from a re-analysis of the deposited data

How the results depend on the processing

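Leaving out 1 library gave 3 to 5 members that rose and 1 to 3 that fell, and over all peaks 1366 to 3033 that rose and 849 to 2407 that fell. The lowest value of each range came without naive replicate 2, the deepest library, and 3 members also rose without naive replicate 3; the cause was not tested. The stricter filter (20 counts or more in 3 libraries or more) left 35 members, of which 6 rose and 1 fell, because the weaker peak that fell was not tested. The summed accessibility of the window had a log2 ratio of -0.03 to 0.07 when 1 library was left out, -0.05 with the chromosome 15 offset and 0.13 with abundance-trended offsets, where the cause was not tested. With those offsets the Ly6a peak had a log2 fold change of 0.12 (adjusted p = 0.671, edgeR), against -0.09 with TMM. Each called member kept its sign wherever it was tested. The replicate block left 4 members that rose and 2 that fell, with 1972 and 1567 over all peaks. Correlations of the deviations of same-numbered libraries were -0.24, -0.11 and 0.01, and none of the libraries was most like its namesake in number, so the numbers were not taken to pair the libraries. Weak peaks are limited by depth, with a median of 19 reads per tested peak in naive replicate 1.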

Other observations

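In the 700 kb beyond the higher-coordinate end of the Ly6 window, 5 of 13 tested peaks rose in primary tumour libraries, against 8.00% of all tested peaks. Their adjusted p-values ran from 0.0248 to 0.0486 (edgeR). Whether these calls hold in the alternatives was not examined. From 75100683 to 75102601 accessibility was 22.2, 26.5 and 20.4 CPM in primary tumour libraries and 14.6, 6.80 and 10.2 CPM in naive libraries (log2 fold change 1.21, SE 0.39, adjusted p = 0.0352, edgeR). From 75472457 to 75473177 it was 27.95, 22.2 and 29.9 CPM in primary tumour libraries and 12.0, 10.1 and 14.5 CPM in naive libraries (log2 fold change 1.14, SE 0.34, adjusted p = 0.0248, edgeR). The peak from 75122853 to 75124551 rose unevenly, with 11.1, 39.7 and 19.0 CPM in primary tumour replicates 1, 2 and 3 against 12.9, 3.67 and 8.54 CPM in naive libraries. It was called (log2 fold change 1.59, SE 0.50, adjusted p = 0.0345, edgeR), although its groups overlapped. These peaks were chosen after their values were seen.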
